A study of Mus musculus with 6 samples.

Results

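The actin isoforms and transgelins are 7 genes of the actin cytoskeleton, taken by name: Acta1, Actc1, Acta2, Actb, Actg1, Tagln and Tagln2. All 7 were measured, among 12625 genes with counts. C2C12 is a mouse myoblast line, grown from 1 clone, that fuses into multinucleated myotubes. After differentiating for 5 days, the myotubes received recombinant mouse RANKL at 100 ng per ml for 72 h (3 libraries) or vehicle (3 libraries). No other treatment or genetic change is named for either group. The comparison asks what RANKL, a cytokine of the tumour necrosis factor family known for driving osteoclast formation through its receptor RANK, changes in muscle cells.

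Actin builds the thin filaments of the sarcomere and the cortical and stress fibre network outside it. Beta-actin and gamma-actin (Actb and Actg1) serve the cytoplasm of nearly every cell. Smooth muscle alpha-actin (Acta2) and cardiac alpha-actin (Actc1) appear as skeletal muscle develops, and skeletal alpha-actin (Acta1) dominates adult fibres. Transgelins bind along actin filaments; Tagln marks smooth muscle and Tagln2 occurs in many cell types. Several of these genes are classical targets of serum response factor (SRF), which binds a motif called the CArG box, and of its co-activators MRTF-A and MRTF-B, which monomeric actin holds back.

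The sequences before the start of 4 members are shown because they carry the motif this family is known for. RefSeq promoter windows on the GRCm38.p6 build were matched for 5 of the 7 members, and the 250 bases before the start were searched on both strands. A CArG box has a pair of cytosines and a pair of guanines around a core made only of adenine and thymine. Capitals mark each CArG box and each copy with 1 core letter changed. All stretches run 5′ to 3′ on the minus strand, the strand of these genes. Those of Acta1 and Actg1 stop short of any exon that GENCODE M21 gives the gene. That of Actc1 stops short of an exon too, but lies inside the gene, which GENCODE starts upstream at 114053548.
Acta1 chr8:123894776-123895025: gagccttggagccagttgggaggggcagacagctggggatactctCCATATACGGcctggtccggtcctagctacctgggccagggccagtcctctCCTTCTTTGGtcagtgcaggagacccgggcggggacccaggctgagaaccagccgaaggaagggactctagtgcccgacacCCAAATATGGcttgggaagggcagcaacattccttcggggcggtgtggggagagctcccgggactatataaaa
Actc1 chr2:114052888-114053125: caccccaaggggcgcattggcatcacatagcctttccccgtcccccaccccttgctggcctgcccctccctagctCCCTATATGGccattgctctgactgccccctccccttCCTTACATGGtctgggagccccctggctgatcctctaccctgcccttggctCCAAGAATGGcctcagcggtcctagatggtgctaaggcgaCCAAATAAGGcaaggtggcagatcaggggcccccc
Acta2 upstream site chr19:34255438-34255467: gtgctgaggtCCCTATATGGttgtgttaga
Acta2 downstream site chr19:34255388-34255417: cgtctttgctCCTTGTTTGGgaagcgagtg
Actg1 chr11:120348543-120348745: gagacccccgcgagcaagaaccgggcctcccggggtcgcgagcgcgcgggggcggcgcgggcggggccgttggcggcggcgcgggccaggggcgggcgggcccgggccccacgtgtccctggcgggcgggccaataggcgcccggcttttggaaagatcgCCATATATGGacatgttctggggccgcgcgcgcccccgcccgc

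An unaltered CArG box began 73 bases before the RefSeq start of Acta1, 47 before that of Actc1 and 90 before that of Actg1. It was present in 1.47% of the 32851 promoter windows of this length. Copies with 1 core letter changed stood in Acta1 (2), Actc1 (3) and Acta2 (2), and 7.24% of all windows held at least 1. The altered copies of Acta2 began 84 and 34 bases before its RefSeq start and lie inside a GENCODE exon of that gene. The whole Actc1 window lies past the start that GENCODE gives that gene. The Tagln2 window held no match to either form, to the E-box CANNTG (66.2% of windows) or to TATAAA (12.4%), but 199 of its 250 bases lie past the start that GENCODE gives the gene. None of the 5 windows matched the NF-kB site, found in 3.9% of all windows. A match describes letters only, since binding was not measured.

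**Figure D1:**
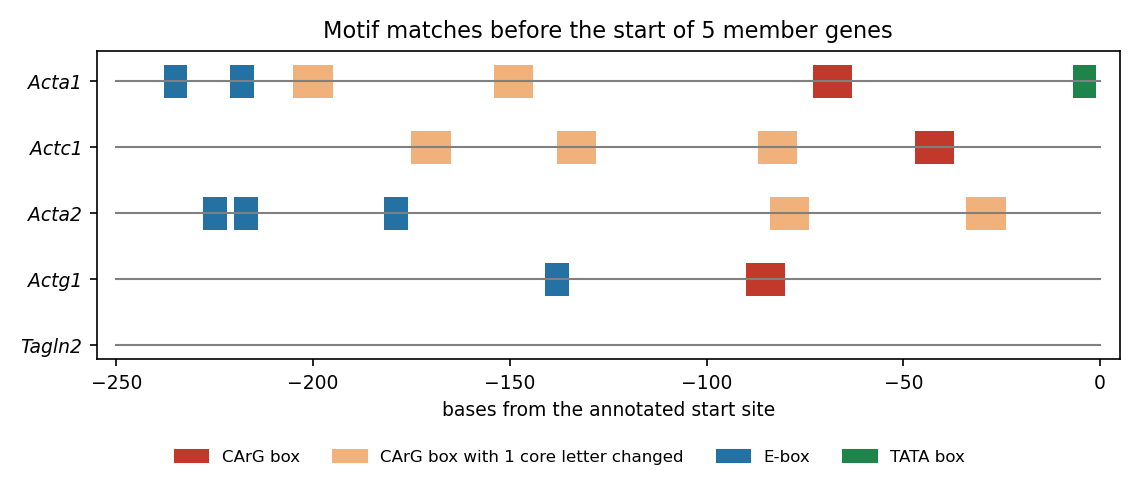
Motif matches in the 250 bases before the RefSeq start of 5 members, drawn to scale by distance from the start in bases. Acta1, Actc1 and Actg1 each hold 1 unaltered CArG box (red), Acta2 holds only copies with 1 core letter changed (orange), and the Tagln2 line carries no match.

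Values below are CPM, counts relative to library size, after TMM scaling, a correction for library composition, unless RPKM is named. Total counts per library lay between 32732604 and 39677999. Fold changes are RANKL over vehicle from edgeR's quasi-likelihood test on all 12625 genes, with Benjamini-Hochberg adjustment and a threshold of 0.05. The 10 myotube markers checked were all present and summed to 21429 to 21794 CPM in RANKL libraries and 22353 to 22562 CPM in vehicle libraries. The embryonic myosin Myh3 made up the largest part of both sums, averaging 7091 CPM in RANKL libraries and 7769 CPM in vehicle libraries. Of the 10 markers 8 did not pass the test. On the second principal component of all genes, RANKL replicates 1 and 3 lay at opposite ends. No label says that the replicates came from separate cultures, so p-values describe the spread among these libraries, which could be technical.

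Both transgelins rose and both striated actins fell, while Acta2, Actb and Actg1 did not pass the test. Tagln2 was 60.2% and Tagln 36.3% higher in RANKL libraries, and Acta1 was lower by a log2 fold change of -0.19. Of the 7 members 4 were called, against 12.9% of all genes: 2 higher, against 5.35%, and 2 lower, against 7.5%. The 5 actins belong to the 2315 genes that average 100 CPM or more, of which 25.1% were called, 5.44% higher and 19.6% lower, so the 2 actins called lower stand beside a larger background than all genes give. RANKL and vehicle libraries did not overlap in 6 of the 7 members, against 31.5% of all genes: 3 lay above vehicle, against 14.9%, and 3 below, against 16.6%. The calls of Acta1, Tagln and Tagln2 held in all 14 alternative settings, and that of Actc1 in 7. The setting without a filter on low counts repeats the main test, because the filter removed no gene. In bulk RNA, fewer cells of a type and less RNA per cell cannot be told apart.

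**Figure D2:**
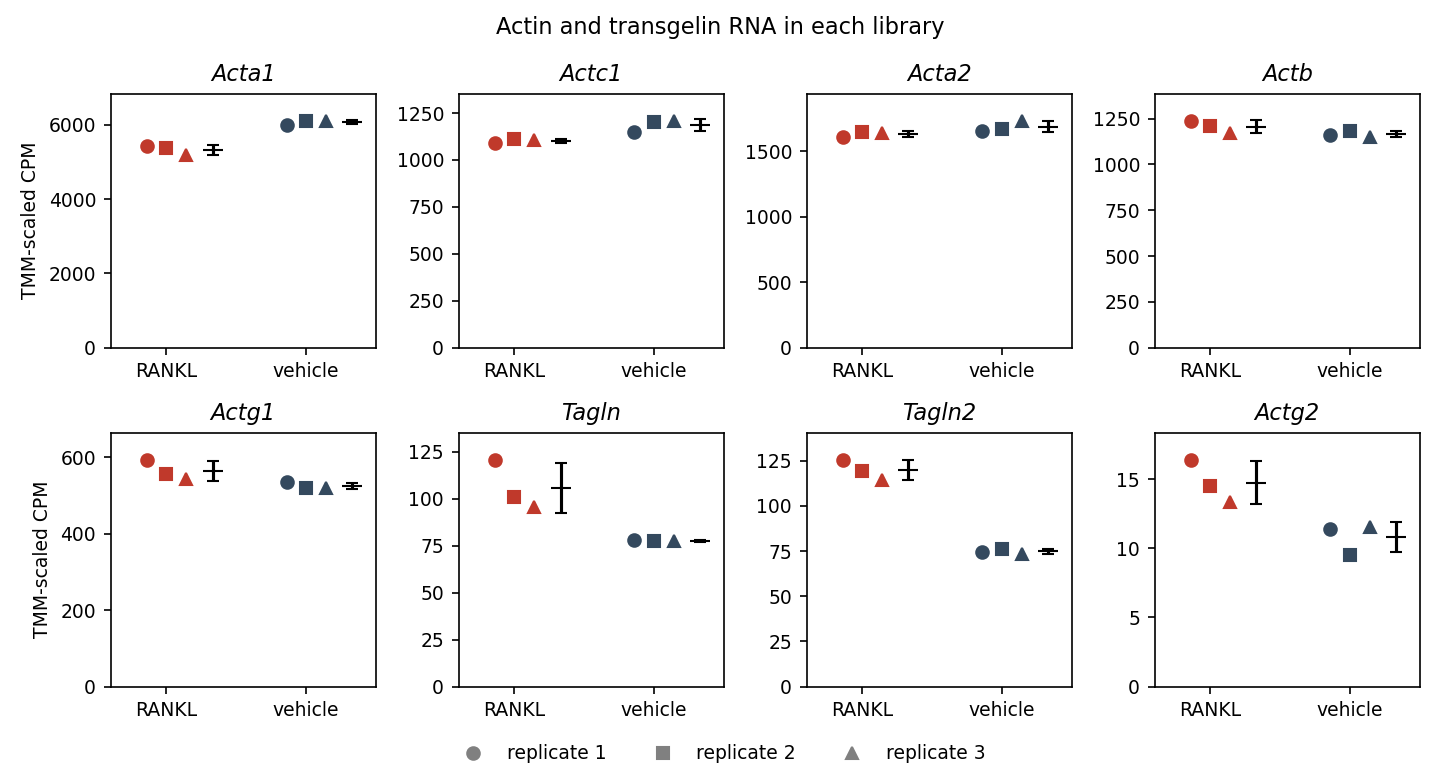
TMM-scaled CPM of the 7 members and of the related gene Actg2 in each library, RANKL left and vehicle right, with marker shapes for replicates and black bars for mean ± SD (n = 3). Each panel has its own axis from 0; all RANKL libraries of Tagln and Tagln2 stand above vehicle, and all those of Acta1 below it.

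Acta1, the skeletal alpha-actin of the adult thin filament, had 5421, 5373 and 5180 CPM in RANKL replicates 1 to 3, against 6006, 6099 and 6110 CPM in vehicle replicates 1 to 3. All RANKL libraries lay below all vehicle libraries, and the gap between the groups was wider than the range inside either. The log2 fold change was -0.19 ± 0.035 (SE; 95% interval -0.26 to -0.12; edgeR adjusted p = 0.0025). Acta1 lies on chromosome 8 from 123891769 to 123894751 (mm10, minus strand).

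Actc1, the cardiac alpha-actin that skeletal muscle makes as it develops, had 1090, 1111 and 1107 CPM in RANKL replicates 1 to 3, against 1150, 1202 and 1209 CPM in vehicle replicates 1 to 3. The groups did not overlap, but vehicle replicate 1 stood nearer to the RANKL libraries than to the rest of its group. The log2 fold change of Actc1 was -0.11 ± 0.032 (95% interval -0.18 to -0.038; edgeR adjusted p = 0.0423). The call was lost with total count scaling (edgeR adjusted p = 0.154) and in the authors' normalized values (limma adjusted p = 0.0935). It was also lost without vehicle replicate 2 or 3 or any one RANKL replicate, with edgeR adjusted p between 0.0757 and 0.175. Actc1 lies on chromosome 2 from 114047282 to 114053548 (minus strand).

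Acta2, the smooth muscle alpha-actin, had 1610, 1650 and 1643 CPM in RANKL libraries, against 1654, 1671 and 1734 CPM in vehicle libraries. The groups lay next to each other without overlap, the highest RANKL library being just below the lowest vehicle library. The log2 fold change of -0.045 ± 0.033 (95% interval -0.11 to 0.024) did not pass (edgeR adjusted p = 0.406). Acta2 lies on chromosome 19 from 34241090 to 34255590 (minus strand).

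The cytoplasmic isoforms had fold changes above 0. Actb, beta-actin, had 1238, 1209 and 1170 CPM in RANKL libraries, against 1159, 1184 and 1151 CPM in vehicle libraries. The groups overlapped, since RANKL replicate 3 was lower than vehicle replicate 2, and the log2 fold change of 0.050 ± 0.033 (95% interval -0.020 to 0.12) did not pass (edgeR adjusted p = 0.354). Actg1, gamma-actin, had 593, 555 and 543 CPM in RANKL libraries, against 534, 520.0 and 519 CPM in vehicle libraries. These groups did not overlap, and RANKL replicate 1 was the highest library. The log2 fold change of Actg1 was 0.10 ± 0.036 (95% interval 0.028 to 0.18), which did not pass after adjustment (edgeR adjusted p = 0.0709). It passed in 3 of 14 alternatives, among them total count scaling (edgeR adjusted p = 0.0188) and the run without RANKL replicate 3 (0.0284), and its log2 fold change was 0.069 (0.176) without RANKL replicate 1. Actb lies on chromosome 5 from 142903115 to 142906754 and Actg1 on chromosome 11 from 120345690 to 120348542, both on the minus strand.

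Tagln2, the transgelin found in many cell types, had 126, 119 and 115 CPM in RANKL libraries, against 74.6, 76.2 and 73.7 CPM in vehicle libraries. Every RANKL library was well above every vehicle library. The log2 fold change was 0.68 ± 0.038 (95% interval 0.60 to 0.76; edgeR adjusted p = 4.36e-08). By p-value Tagln2 ranked 11 of 12625 genes, and by fold change 132 from the highest. It lies on chromosome 1 from 172500047 to 172507380 (plus strand).

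Tagln, also called SM22 alpha, had 121, 101 and 95.4 CPM in RANKL libraries, against 78.2, 77.4 and 77.4 CPM in vehicle libraries. The vehicle libraries were nearly level, while RANKL replicate 1 lay above the other RANKL libraries. The log2 fold change was 0.45 ± 0.064 (95% interval 0.31 to 0.58; edgeR adjusted p = 0.000436), and 0.34 (edgeR adjusted p = 2.21e-06) without RANKL replicate 1. Tagln lies on chromosome 9 from 45929619 to 45936058 (minus strand). On the opposite strand its exons overlap those of Gm48529 by 1241 bases and those of Pcsk7 by 108 bases. Whether counting used strand is not stated in the labels or headers, so reads of these genes cannot be told apart there.

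Actg2, the smooth muscle gamma-actin and no member of the set, had 16.4, 14.5 and 13.3 CPM in RANKL libraries, against 11.4, 9.53 and 11.5 CPM in vehicle libraries. The groups did not overlap, and the log2 fold change was 0.45 ± 0.090 (edgeR adjusted p = 0.00456), called in all 14 alternatives. Of the 4 measured genes among 6 other actins, actin-related genes and transgelins, Actg2 was the only one called, in the main test and in all 14 alternatives. Tagln3 and Actbl2 are not analysed here.

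**Figure D3:**
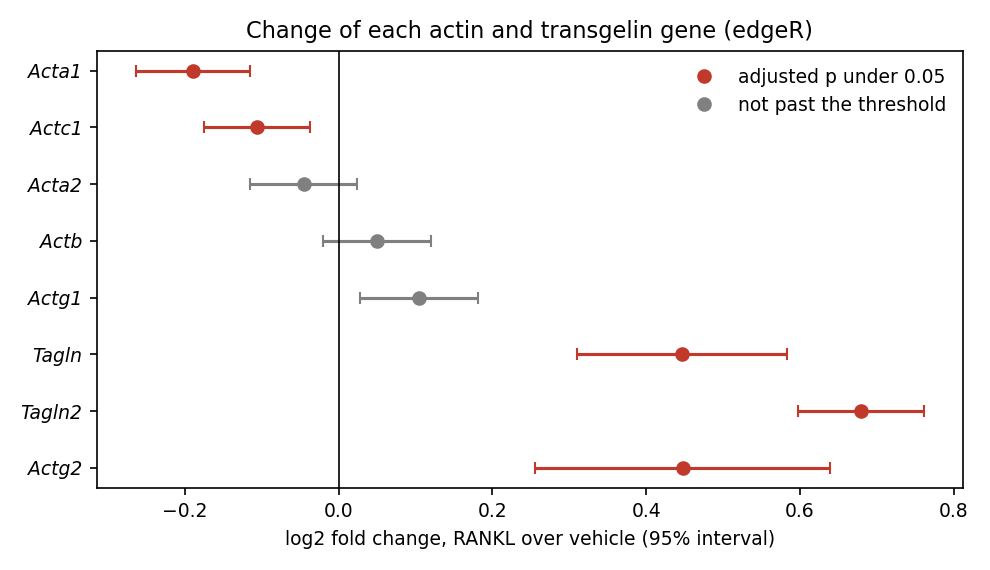
Log2 fold change, RANKL over vehicle, of each member and of Actg2, with 95% intervals from edgeR (3 RANKL and 3 vehicle libraries). Red points passed an adjusted p of 0.05; values run from -0.19 for Acta1 to 0.68 for Tagln2, and the intervals of Acta2 and Actb cross 0.

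Levels of different genes were compared per length, with the authors' RPKM, which scale reads for gene length and library size. Acta1 averaged 3389 ± 81.3 RPKM in RANKL libraries and 3865 ± 36.3 RPKM in vehicle libraries (SD, n = 3 each, as below). Actc1 came next with 793 ± 8.17 RPKM in RANKL libraries and 854 ± 23.4 RPKM in vehicle libraries. Acta2 averaged 635 ± 8.33 RPKM in RANKL libraries and 656 ± 16.3 RPKM in vehicle libraries. Acta2 was level with Actb in RANKL libraries, where their ranges overlapped, and above it in vehicle libraries. Actb averaged 629 ± 17.7 RPKM in RANKL libraries and 607 ± 8.96 RPKM in vehicle libraries, and Actg1 298 ± 13.8 RPKM in RANKL libraries and 277 ± 4.57 RPKM in vehicle libraries.

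Both transgelins stood below every actin of the set. Tagln2 averaged 86.7 ± 4.02 RPKM in RANKL libraries and 54.2 ± 0.918 RPKM in vehicle libraries. Tagln averaged 66.7 ± 8.44 RPKM in RANKL libraries and 49.0 ± 0.294 RPKM in vehicle libraries. Some of this order rests on the gene lengths used. With exon lengths from GENCODE M21, Acta2 stood above Actc1, with 13.4 against 12.3 percent of the summed actin level in RANKL libraries and 12.6 against 12.1 percent in vehicle libraries. It also stood clear of Actb, which had 8.10 percent in RANKL libraries and 7.14 percent in vehicle libraries. With those lengths the log2 ratio of Tagln2 to Tagln was 0.12 in RANKL libraries and -0.12 in vehicle libraries. Acta1 stayed highest and Actg1 lowest among the actins with either set of lengths.

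The make-up of the actin pool within a library does not depend on how libraries are scaled, but it does depend on the gene lengths used. The striated isoforms Acta1 and Actc1 together held 72.8, 72.9 and 72.7 percent of the summed RPKM of the 5 actins in RANKL libraries, against 75.2, 75.5 and 75.5 percent in vehicle libraries. The groups did not overlap and differed by -2.59 percentage points. The exact two-sided permutation test gave p = 0.1, the smallest that 3 against 3 libraries allow. The cytoplasmic isoforms Actb and Actg1 held 16.5, 16.0 and 15.9 percent in RANKL libraries, against 14.4, 14.2 and 13.9 percent in vehicle libraries. Their share was higher in every RANKL library, by 2.00 points on average (exact permutation p = 0.1). With exon lengths from GENCODE M21 the cytoplasmic share averaged 11.9 percent in RANKL libraries and 10.4 percent in vehicle libraries. The difference was then 1.53 points for the cytoplasmic share and -2.32 points for the striated share.

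By isoform, Acta1 held 59.0 ± 0.380 percent of the pool in RANKL libraries and 61.8 ± 0.101 percent in vehicle libraries. Acta2 held 11.1 ± 0.297 percent in RANKL libraries and 10.5 ± 0.187 percent in vehicle libraries, without overlap. The shares add up to the whole, so a lower share of Acta1 goes with higher shares elsewhere. The level of Acta2 itself was not higher, at 635 RPKM in RANKL libraries and 656 RPKM in vehicle libraries. The share of Actc1 overlapped between the groups, at 13.8 ± 0.338 percent in RANKL libraries and 13.6 ± 0.227 percent in vehicle libraries (exact permutation p = 0.4). The summed actin level was 5745 ± 101 RPKM in RANKL libraries and 6259 ± 68.7 RPKM in vehicle libraries, without overlap.

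**Figure D4:**
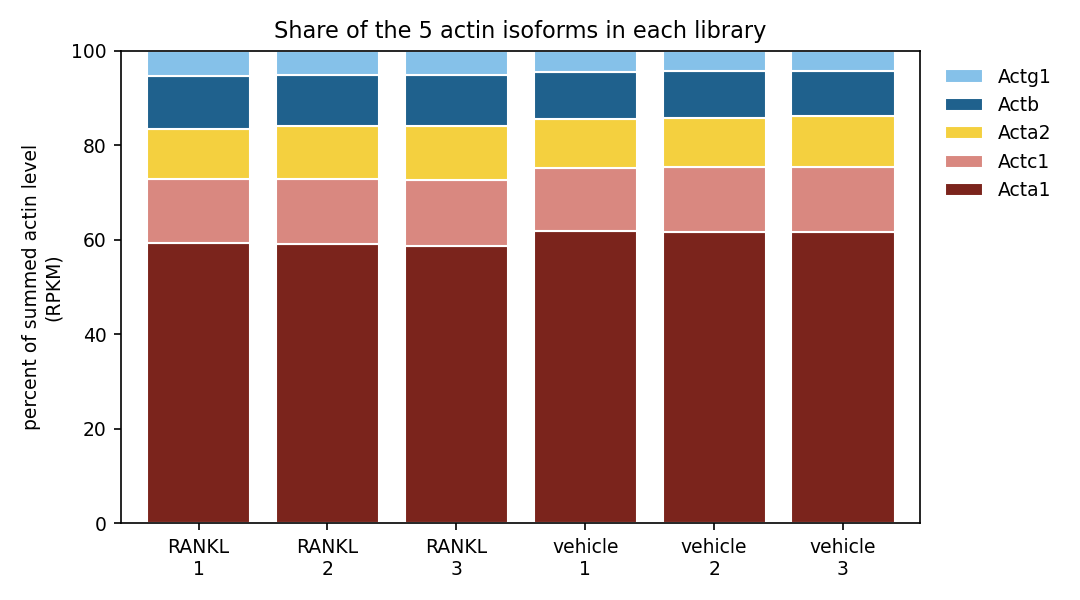
Share of each of the 5 actin isoforms in their summed RPKM, in percent, 1 stacked bar per library, RANKL left and vehicle right. In the RANKL bars the dark red Acta1 block averages 59.0 percent, against 61.8 percent in the vehicle bars, and both blue blocks (Actb and Actg1) are taller.

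Ratios between members in the same library were also compared. The log2 ratio of Actb to Acta1 was -2.42, -2.44 and -2.43 in RANKL libraries, against -2.66, -2.65 and -2.70 in vehicle libraries. The ratio was higher in every RANKL library, by 0.24. The log2 ratio of Acta1 to Actc1 was 2.10 ± 0.044 in RANKL libraries and 2.18 ± 0.026 in vehicle libraries, and that of Acta2 to Acta1 was -2.41 ± 0.048 in RANKL libraries and -2.56 ± 0.027 in vehicle libraries. For Tagln to Acta2, both known from smooth muscle, it was -3.26 ± 0.20 in RANKL libraries and -3.74 ± 0.042 in vehicle libraries. Tagln2 to Tagln gave 0.25, 0.44 and 0.46 in RANKL libraries, against 0.13, 0.18 and 0.13 in vehicle libraries, with RANKL replicate 1 nearest to vehicle. Groups did not overlap in these 5 ratios (exact permutation p = 0.1 each), whereas those of Actg1 to Actb overlapped (exact permutation p = 0.2). The shares and ratios formed a family of 14 tests, in which no adjusted p can pass the threshold. These tests are not independent, since the shares add up to the whole and several ratios contain Acta1.

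Actin genes are close copies of each other and of many pseudogenes. In GENCODE M21 transcripts, 33.5% of the stretches of 75 bases (the read length) in Actg1 also occur in another gene, mainly Gm12715 (29.4%) and Gm8399 (16.4%). For Actb this was 1.58% and for Acta1 0.394%, while Actc1, Acta2, Tagln and Tagln2 shared none. How reads matching several genes were treated is not stated in the labels or headers, and the level of Actg1 is uncertain to that extent.

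For each member the 3 genes with the most similar log2 CPM over the 6 libraries were found among 8992 genes that average 10 CPM or more. These correlations include the difference between the groups and share libraries and scaling, so they are a description. Acta1 was most like 3425401B19Rik, Gas6 and Myh6 (Pearson r from 0.998 to 0.997), and Actc1 most like Hes6, Pttg1ip and Orc6 (0.989 to 0.988). Acta2 was most like Pip4k2c, Rassf7 and Zbed3 (0.990 to 0.983), and Actb most like Enpp1, Noc2l and Emg1 (0.993 to 0.983). Actg1 was most like the collagen genes Col6a3 and Col5a2 and the peroxidase Gpx3 (all 0.997). Tagln was most like Stard7, Foxm1 and Frmd4b (0.998 to 0.993), and Tagln2 most like Unc50, Calcrl and Tmem140 (0.999 to 0.998).

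Other genes of the actin system were taken as 6 lists, over which 14 of 92 genes rose and 18 fell, each counted once, with a median log2 fold change of -0.0065 against 0.0047 over all genes. These are 15.2% higher and 19.6% lower, against 5.35% higher and 7.5% lower over all genes. Of the 59 that average 100 CPM or more, 9 rose and 12 fell, beside 5.44% higher and 19.6% lower among all genes at that level. Only the share that fell, 20.3%, is near that background. Up to 3 called genes per list are named by smallest p. Vcl, Cnn3, Tpm2, Csrp1, Ankrd1, Mkl2, Gsn, Dstn, Lmod2, Twf1, Fmnl3, Wasf2, Arpc5, Actn2, Fscn1, Cspg4, Smtn and Synpo2 are named as well and were chosen after seeing their values.

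Of 10 measured regulators of SRF, 4 fell and 6 did not pass, against 7.5% lower over all genes, with a median log2 fold change of -0.070. Of the 5 that average 100 CPM or more, 1 fell, against 19.6% of all genes at that level. Mkl1, which encodes MRTF-A, had 73.8, 78.8 and 75.9 CPM in RANKL libraries, against 87.9, 84.5 and 85.9 CPM in vehicle libraries. The groups did not overlap, and the log2 fold change was -0.18 ± 0.036 (edgeR adjusted p = 0.00485). Rhob, a small GTPase, averaged 429 ± 5.92 CPM in RANKL libraries and 473 ± 6.88 CPM in vehicle libraries (log2 fold change -0.14 ± 0.030). Abra, an actin-binding protein of striated muscle, had a log2 fold change of -0.26 ± 0.065, and Mkl2, which encodes MRTF-B, one of -0.17 ± 0.042. Mkl1 and Rhob were called in all 14 alternatives, and only these 2 in the authors' normalized values and without vehicle replicate 2.

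Of 23 measured cytoskeletal targets of SRF, 4 rose, 5 fell and 14 did not pass, with a median log2 fold change of -0.080. Most average 100 CPM or more, and of those 18 genes 4 rose and 4 fell (22.2%), against 5.44% higher and 19.6% lower among all genes at that level, so the share that fell is near the background. Those that rose were the tropomyosin Tpm4 (0.23 ± 0.034), the filamin Flna (0.20 ± 0.039), Csrp1 (0.19 ± 0.046) and Ankrd1 (0.11 ± 0.031). Those that fell were Fhl2 (-0.29 ± 0.048), the focal adhesion proteins Zyx (-0.17 ± 0.032) and Vcl (-0.16 ± 0.031), the muscle tropomyosin Tpm2 (-0.13 ± 0.033) and Cnn3 (-0.13 ± 0.035). Tpm4 averaged 326 ± 13.0 CPM in RANKL libraries and 278 ± 3.94 CPM in vehicle libraries, and Fhl2 33.9 ± 1.60 CPM in RANKL libraries and 41.4 ± 1.68 CPM in vehicle libraries. Tpm4, Flna, Fhl2, Zyx and Vcl were called in all 14 alternatives. Without vehicle replicate 2, 2 rose. The number that fell was 3 with total count scaling, in the authors' normalized values, and when RANKL replicate 2 or either of vehicle replicates 2 and 3 was left out.

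Among 25 genes of actin monomer binding, severing and capping, 6 rose, 1 fell and 18 did not pass, with a median log2 fold change of 0.018. That is 24% higher and 4% lower, against 5.35% and 7.5% over all genes. Of the 15 that average 100 CPM or more, 3 rose and 1 fell (6.67%). Among all genes at that level 5.44% rose and 19.6% fell. Tmsb4x, thymosin beta-4, which sequesters actin monomers, averaged 358 ± 9.54 CPM in RANKL libraries and 306 ± 8.33 CPM in vehicle libraries (log2 fold change 0.23 ± 0.033, edgeR adjusted p = 0.000528). Capg, a capping protein of the gelsolin family, rose by 0.16 ± 0.034, while Gsn, gelsolin itself, fell by 0.11 ± 0.032. Tmod4, a tropomodulin of skeletal muscle, had a log2 fold change of 0.94 ± 0.23 at only 1.76 ± 0.535 CPM in RANKL libraries and 0.932 ± 0.107 CPM in vehicle libraries. Dstn, Lmod2 and Twf1 rose by 0.13, 0.12 and 0.14. Tmsb4x and Capg were called in all 14 alternatives. The number that rose was 2 without vehicle replicate 1, and 3 without vehicle replicate 2 or RANKL replicate 2. The call of Gsn was lost with total count scaling and without any one library other than RANKL replicate 3.

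Of 20 genes of actin nucleation, 5 fell, 1 rose and 14 did not pass, with a median log2 fold change of 0.0090. The 5% that rose is at the background of 5.35%, and the 25% that fell stands beside 7.5% of all genes. Of the 9 that average 100 CPM or more, 0 rose and 3 fell (33.3%), against 5.44% higher and 19.6% lower among all genes at that level. The formins Daam2 (-0.21 ± 0.051), Fhod3 (-0.17 ± 0.044) and Fmnl3 (-0.13 ± 0.037) and the Arp2/3 activators Wasl (-0.15 ± 0.040) and Wasf2 (-0.11 ± 0.033) were lower, and the Arp2/3 subunit Arpc5 was higher (0.12 ± 0.036). Each of these 6 calls was lost in at least 1 alternative. The number that fell was 1 with total count scaling, in the authors' normalized values and without any one vehicle library, and 2 without RANKL replicate 1 or 2. Arpc5 was called in 5 of 14 alternatives.

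Of 12 cross-linkers and membrane linkers of actin, 3 fell, 3 rose and 6 did not pass, with a median log2 fold change of 0.035. All 12 average 100 CPM or more, where 5.44% of all genes rose and 19.6% fell, so the number that fell is near the background. The muscle filamin Flnc averaged 1821 ± 7.06 CPM in RANKL libraries and 2213 ± 111 CPM in vehicle libraries (log2 fold change -0.28 ± 0.038, edgeR adjusted p = 0.000257). The alpha-actinins Actn2 (-0.18 ± 0.038), of the Z-disc, and Actn4 (-0.16 ± 0.031), of non-muscle cells, also fell. The non-muscle filamin Flna averaged 1232 ± 55.6 CPM in RANKL libraries and 1073 ± 41.8 CPM in vehicle libraries, and the bundler Fscn1 (0.12 ± 0.033) also rose. Flnc, Actn2, Actn4 and Flna were called in all 14 alternatives. Without vehicle replicate 2 or 3 the number that rose was 1.

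**Figure D5:**
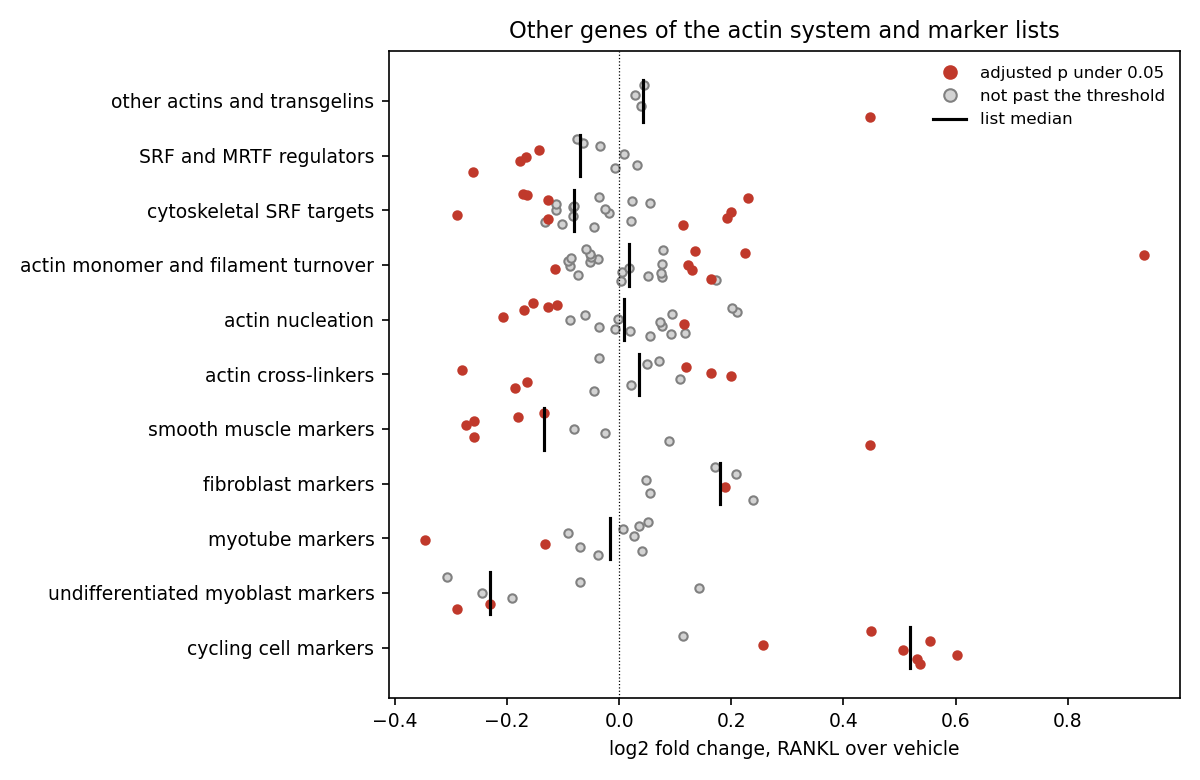
Log2 fold change, RANKL over vehicle, of every measured gene in the 6 lists of the actin system and in 5 marker lists, 1 point per gene, with a black line at the list median. Red points passed an adjusted p of 0.05; the median is -0.070 for SRF and MRTF regulators and 0.52 for cycling cell markers.

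Markers of smooth muscle and pericytes, with Actg2 counted among them, were set beside Tagln and Acta2. Of 9 measured, 5 fell, Actg2 rose and 3 did not pass, with a median log2 fold change of -0.13. Over all genes 7.5% fell. Of the 4 markers that average 100 CPM or more, 3 fell, against 19.6% of all genes at that level. Those that fell were Mylk, the myosin light chain kinase (-0.27 ± 0.047), the pericyte receptor Pdgfrb (-0.26 ± 0.031), Cspg4 (-0.26 ± 0.054), Smtn (-0.18 ± 0.037) and Synpo2 (-0.13 ± 0.035). All but Synpo2 were called in all 14 alternatives, and 2 markers rose with total count scaling or without RANKL replicate 1. The list summed to 1293 to 1345 CPM in RANKL libraries and 1398 to 1423 CPM in vehicle libraries, without overlap. The defining genes Myh11, Cnn1 and Myocd, and Rgs5, are not analysed here.

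Fibroblast markers, 6 of 8 measured, summed to 6694, 6205 and 6065 CPM in RANKL replicates 1 to 3, against 5858, 5611 and 5522 CPM in vehicle replicates 1 to 3. RANKL replicate 1 had the highest sum, and it was also highest for Tagln, Tagln2, Actg1 and Actb, but not for every fibroblast marker. Col3a1 made up the largest part of both sums, averaging 4249 CPM in RANKL libraries and 3728 CPM in vehicle libraries. Of the 6, Col3a1 rose (0.19 ± 0.042, edgeR adjusted p = 0.00872) and 5 did not pass, with a median log2 fold change of 0.18. That is 16.7% higher, against 5.35% over all genes. The call of Col3a1 was lost without vehicle replicate 2, and 3 markers rose with total count scaling and 2 in several other settings, among them the run without RANKL replicate 1. Thy1 and Fap are not analysed here. Of 8 cycling cell markers 7 rose and 1 did not pass, with a median of 0.52, among them Mki67 (0.55 ± 0.056), Cdk1 (0.51 ± 0.070) and Ccna2 (0.53 ± 0.081). That is 87.5% higher, against 5.35% over all genes. The 8 markers summed to 210, 186 and 183 CPM in RANKL libraries, against 149, 141 and 148 CPM in vehicle libraries. The part of such cells in the values of Tagln, Tagln2 and Actg1 was not tested.

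Of the 10 myotube markers 2 fell and 8 did not pass, with a median log2 fold change of -0.015. All 10 average 100 CPM or more, where 19.6% of all genes fell, so the 20% that fell is near the background. Those that fell were the perinatal myosin Myh8 (-0.35 ± 0.050) and the embryonic myosin Myh3 (-0.13 ± 0.035). The call of Myh3 was lost with total count scaling, in the authors' normalized values, and when RANKL replicate 2 or either of vehicle replicates 1 and 2 was left out. Of 7 markers of undifferentiated myoblasts, Cdh15 (-0.29 ± 0.033) and Hes1 (-0.23 ± 0.063) fell and 5 did not pass, with a median of -0.23. That is 28.6% lower, against 7.5% of all genes. Of the 2 markers that average 100 CPM or more, 1 fell, against 19.6% of all genes at that level. The list summed to 540 to 550 CPM in RANKL libraries and 617 to 654 CPM in vehicle libraries. Cdh15 made up the largest part of both sums, with an average of 327 CPM in RANKL libraries and 400 CPM in vehicle libraries. The call of Hes1 was lost with total count scaling and without vehicle replicate 2 or RANKL replicate 3. The part of either cell state in the values of Acta1 and Actc1 was not tested.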

How the data were processed

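RNA of 6 libraries (3 RANKL, 3 vehicle) was sequenced in paired reads of 75 bases, and isolation and sequencing of all samples shared a single occasion, per the labels' protocols. The submitters' processing notes list FastQC, STAR, edgeR and mm10 without versions. The authors deposited whole-number counts per gene symbol for 12625 genes; 4708 empty lines were skipped. In every gene the third-highest library reached at least 0.504 CPM. The authors also deposited log2 values whose header names no unit; set against the counts, they behave as log2 RPKM.

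Counts were tested with edgeR 4.0.16 in R 4.3.3 (TMM, filterByExpr, quasi-likelihood F test), with DESeq2 1.42.0 and limma 3.58.1 as alternatives. The SE is the absolute log2 fold change over the square root of F, and intervals cover 95%. Shares and ratios used exact permutation tests. The edgeR step was tested on simulated data, where recovery was required only for a change larger than those given here. Recovery of smaller changes is not reported here. Members, lists and tests were chosen with earlier results of these data known. Genes named are the members, Actg2 and Tagln3, up to 3 called genes per list by smallest p, and the 3 genes most like each member; other genes with values are marked, and list genes without values are named only as not analysed. List symbols were matched directly or through RefSeq synonyms. Gene positions are from GENCODE M21 on mm10. The values of 1 called gene of the cross-linker list are not reported here.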

Additional observations from a re-analysis of the deposited data

How the results depend on the processing

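All 7 members kept their direction in all 14 alternatives. Actc1 (log2 fold change -0.11) was no longer called with total count scaling (-0.076), in the authors' normalized values (-0.11) or in 5 of the 6 runs without 1 library (-0.11 to -0.093, and -0.13 without vehicle replicate 1, where the call held). Actg1 (0.10) was called with total count scaling (0.14) and without RANKL replicate 3 (range without 1 library 0.069 to 0.13). With the replicate number as a block Actg1 was also called (0.10, edgeR adjusted p = 0.0443), 2 fibroblast markers rose, no other member's call changed, and 730 genes were higher and 1008 lower, against 676 and 947. Deviations from the group means correlated at 0.10, 0.047 and 0.012 between libraries of the same number, so the numbers were not taken as pairs. Total count scaling gave 1070 higher and 626 lower genes, and runs without 1 library 373 to 746 higher and 537 to 880 lower. Of the 92 actin genes 14 rose and 18 fell. Of these genes 11 fell with total count scaling and 10 fell in the authors' normalized values. Runs without 1 library gave 6 to 16 higher and 9 to 19 lower. Those runs hold fewer samples, and the cause of the other moves was not tested. The difference in the Actc1 share, 0.168 points, ranged from 0.00052 to 0.339 points without 1 library. With GENCODE exon lengths the striated share differed by -2.32 points, against -2.59, and the cytoplasmic share by 1.53 points, against 2.00. All 14 shares and ratios kept their direction with those lengths.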
